A study of Mus musculus with 6 samples.

Results

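Glycolysis breaks glucose down to pyruvate, and its enzymes are joined by side branches that handle pentoses, fructose and glycogen. This account covers 38 genes of these pathways in mouse kidney, given by name: hexokinases and phosphofructokinases, the PFKFB regulators, the enzymes from aldolase to pyruvate kinase, lactate dehydrogenases with monocarboxylate carriers, the pentose phosphate pathway, fructose and sorbitol enzymes, and glycogen enzymes. Probes were assigned to them through their RefSeq accessions. All 38 had a probe well above background on all 6 arrays, so none was lost to the filter on dim probes, and they stood among 17136 genes tested. The proximal tubule is known for making glucose rather than burning it and for taking up filtered fructose, whereas distal and medullary segments rely more on glycolysis.

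Total RNA of whole kidneys was measured on 6 one-colour Agilent arrays, 3 labelled Pck1-CKO and 3 labelled wild-type (WT). Pck1-CKO mice carried Pck1 flox/flox and γGT-Cre tg/+, a Cre transgene directed to the proximal tubule, so the targeted cells are only some of those in the measured organ. WT mice were littermates of the same age and sex, and controls of 3 genotypes came from the breeding: Pck1 flox/+ mice that also had γGT-Cre tg/+, Pck1 flox/+ mice that lacked it, and mice with Pck1 flox/flox alone. Which of these genotypes a WT array holds is not stated, so a WT array may carry floxed alleles or the Cre transgene. All mice were on the C57BL/6J background and were killed at 32 weeks. Pck1 encodes the cytosolic enzyme that turns oxaloacetate into phosphoenolpyruvate, the step by which gluconeogenesis bypasses pyruvate kinase. The comparison asks how the kidney's other sugar-handling genes differ when that step is targeted.

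Levels below are normalised log2 signals, in which 0 is an array's own 75th percentile of signal, and signals of different probes cannot be set against each other. Between 65.6% and 68.4% of probes lay well above background on an array, and the number of arrays limits the precision. Whether the 3 arrays of a group hold RNA of 3 mice is not stated, and p-values reflect the scatter among these arrays, which may be technical. The Pck1 probe read 6.44, 6.60 and 6.90 in Pck1-CKO and 6.29, 6.32 and 5.63 in WT, a log2 change of 0.56 ± 0.22 (SE, limma adjusted p = 0.152). Where this probe lies with respect to the deleted sequence is not stated, so it checks nothing about the labels, and every direction below is that of the arrays labelled Pck1-CKO. The 10 proximal tubule markers were all measured, with summed linear signals of 881 to 899 in Pck1-CKO and 829 to 919 in WT. Of fat cell markers, 5 of 6 brown adipocyte and 2 of 8 general adipocyte genes were higher in Pck1-CKO, and WT 1 read lowest of the WT arrays for all 14 but Lep. Among the 5 brown adipocyte genes, Elovl3 was well above background on no WT array. It met the filter on dim probes through the Pck1-CKO arrays alone, so its call lends no support. Of distal cell types, 3 of 5 intercalated and 2 of 4 distal convoluted tubule markers were lower and 2 of 5 principal cell markers higher, with 1 of 4 thick ascending limb markers higher. Of podocyte markers 1 of 4 was lower, 1 of 6 smooth muscle and 2 of 5 neutrophil markers were higher, and none of the tested macrophage, erythroid, nerve or adrenal cortex markers passed in limma. Only 2 of 5 adrenal cortex markers were tested, since Cyp11a1, Cyp11b1 and Cyp11b2 were well above background on 0 arrays. All 4 tested erythroid markers had positive changes, and for 2 the groups did not overlap, beside 38.3% of all genes. The groups lay in different rows of the same slide, so an effect of row and one of genotype cannot be told apart.

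Of the 38 genes, 3 passed the test in Pck1-CKO kidney. Hk2, the insulin-responsive hexokinase of muscle and fat, was 3.58-fold higher, and Pfkfb1, which sets the level of phosphofructokinase's allosteric activator, was 1.47-fold higher. Gys1, the glycogen synthase of muscle and most other tissues, was lower, at 0.826-fold of WT. Called genes were those with an adjusted p under 0.05 in limma over all genes tested. By this rule 2 members were higher and 1 lower, 7.89% of the 38, beside 8.04% of all genes (4.34% higher and 3.70% lower). The share of members called was thus close to that of the whole array. Their median log2 change was -0.0028, against 0.0091 over all genes, and their median size of change was 0.093, against 0.119. Of the members, 18 had a positive and 20 a negative change, and 21 of 38 changed by less than 0.1 on the log2 scale (55.3%, against 43.3% of all genes). Groups did not overlap for 14 members (36.8%), against 38.3% of all genes, and 10 members had an unadjusted p under 0.05, a rule met by 31.2% of all genes. In a whole organ, fewer cells of a type and less RNA per cell cannot be told apart.

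**Figure D1:**
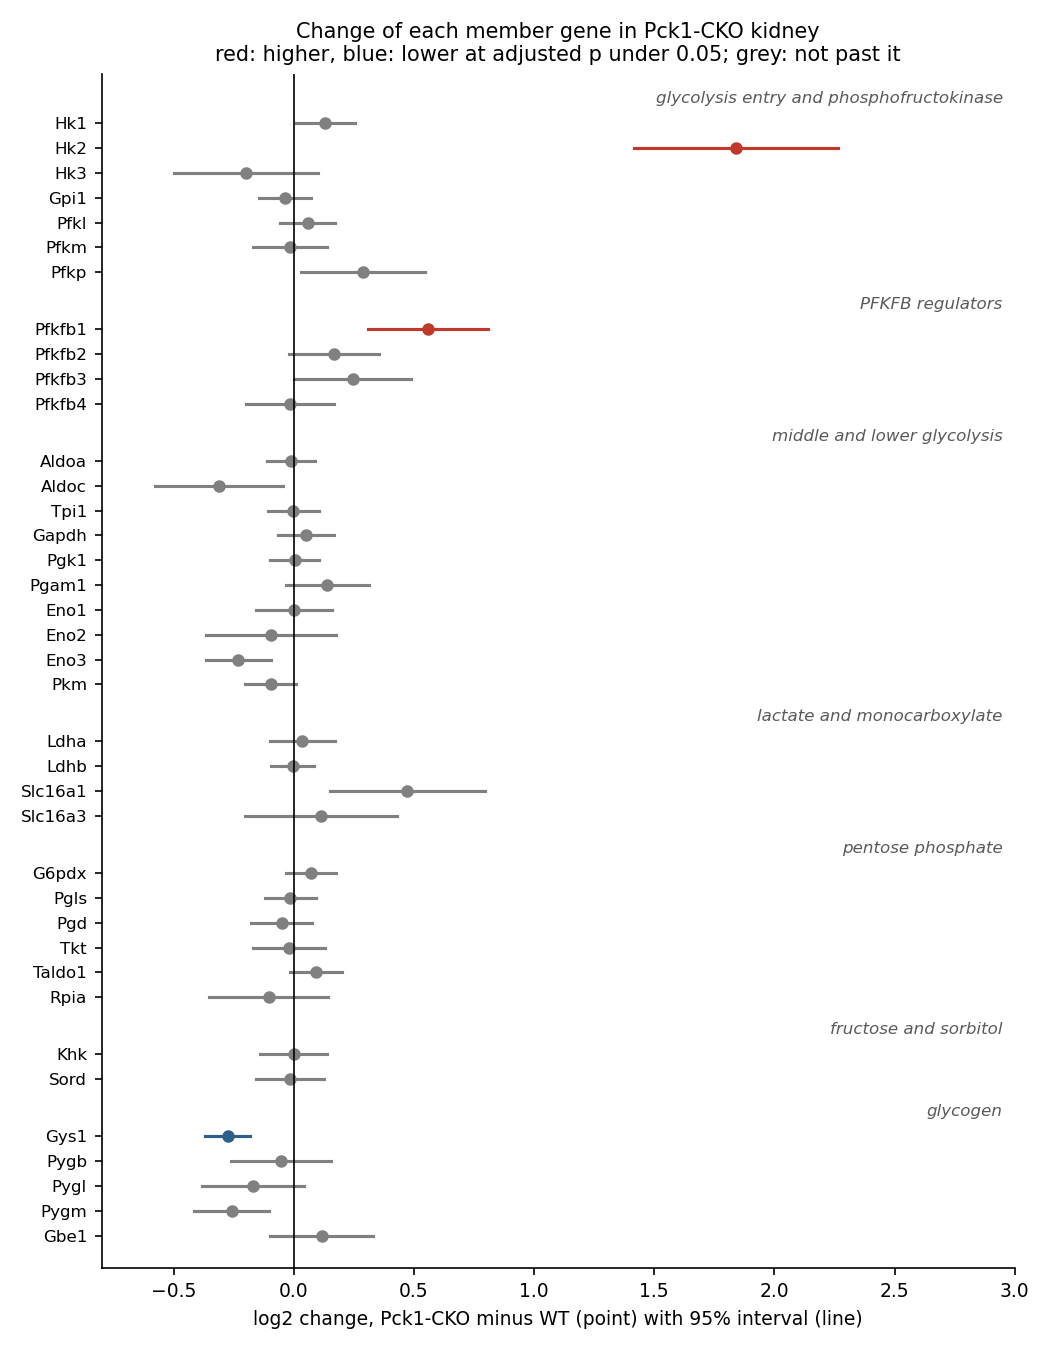
Log2 change of each of the 38 genes in Pck1-CKO relative to WT (horizontal axis), with its 95% interval from limma, grouped by role down the page. Hk2 lies far to the right of all others at 1.84, Pfkfb1 at 0.56 and Gys1 at -0.28, Aldoc at -0.31 and Eno3 at -0.23 lie to the left without passing, and 21 of the 38 points are within 0.1 of 0.

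Hexokinases trap glucose in the cell by phosphorylating it. Hk2 read -2.95, -3.44 and -2.97 in Pck1-CKO, against -5.00, -4.73 and -5.16 in WT. The groups were separated by more than 1 log2 unit, and the spread within each was small beside that gap. The means were -3.12 ± 0.27 in Pck1-CKO and -4.96 ± 0.22 in WT (SD, n = 3 each), a log2 change of 1.84 ± 0.17 (SE, adjusted p = 0.0149, 95% interval 1.42 to 2.26). Hk2 was a dim gene, read by 1 probe. Its WT signals came near the lowest signal well above background on an array, which lay between -5.93 and -5.44. With normexp background correction, whose offset shrinks dim signals, the log2 change was 0.67 (adjusted p = 0.0118). It did not pass without WT 1 (adjusted p = 0.0651), without WT 2 (0.0513) or without Pck1-CKO 1 (0.0625), although the log2 change was 1.74 or more on leaving out any array.

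The other hexokinases did not pass. Hk1, the form of most tissues, read 4.01, 4.02 and 3.98 in Pck1-CKO and 3.83, 3.83 and 3.95 in WT, with a log2 change of 0.13 ± 0.05 (SE, adjusted p = 0.14). The Pck1-CKO arrays lay just above the WT arrays. Hk3, a form of myeloid cells, had a log2 change of -0.20 (adjusted p = 0.313) with overlapping groups. Gpi1, which turns glucose phosphate into fructose phosphate, had a log2 change of -0.036. Among phosphofructokinases, the committed step of glycolysis, the liver form Pfkl and the muscle form Pfkm differed by 0.058 and -0.017. The platelet form Pfkp read 2.28, 2.29 and 1.94 in Pck1-CKO and 1.82, 1.89 and 1.94 in WT. Pck1-CKO 3 lay at the level of WT 3, and the log2 change was 0.29 ± 0.10 (SE, adjusted p = 0.13). Its second probe gave 0.26. Without Pck1-CKO 3 the log2 change of Pfkp was 0.40 and passed (adjusted p = 0.0258).

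The PFKFB enzymes make and break down the activator that drives phosphofructokinase and restrains gluconeogenesis. Pfkfb1, best known from liver and muscle, read -1.12, -1.14 and -0.89 in Pck1-CKO, against -1.76, -1.58 and -1.48 in WT. All Pck1-CKO arrays lay above all WT arrays. Means were -1.05 ± 0.14 in Pck1-CKO and -1.61 ± 0.14 in WT (SD, n = 3 each), a log2 change of 0.56 ± 0.10 (SE, adjusted p = 0.0368). A second, much dimmer probe moved the same way, by 0.98 ± 0.35 (SE), and did not pass (adjusted p = 0.147 over all probes). With the mean of both probes the gene had a log2 change of 0.77 and did not pass (adjusted p = 0.0707). The call was also lost without WT 1, WT 2, Pck1-CKO 1 or Pck1-CKO 2, with an adjusted p between 0.0992 and 0.119 and a log2 change between 0.48 and 0.60.

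The probes of Pfkfb2, the heart form, and of Pfkfb3, an inducible form of proliferating and hypoxic cells, gave changes of both signs. Pfkfb2 read 1.07, 1.18 and 1.07 in Pck1-CKO and 0.94, 1.07 and 0.82 in WT by its brightest probe. Its changes by 3 probes were 0.17, 0.16 and -0.13, and none passed. Pfkfb3 read 1.6, 1.56 and 1.65 in Pck1-CKO and 1.19, 1.34 and 1.56 in WT by its brightest probe, so Pck1-CKO 2 and WT 3 lay side by side. That probe had a log2 change of 0.24 ± 0.10 (SE, adjusted p = 0.158), while a dimmer probe for the same accession changed by -0.28. Their mean gave -0.018. Without WT 3 the brightest probe passed at 0.34 (adjusted p = 0.0476). Pfkfb4 differed by -0.015.

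**Figure D2:**
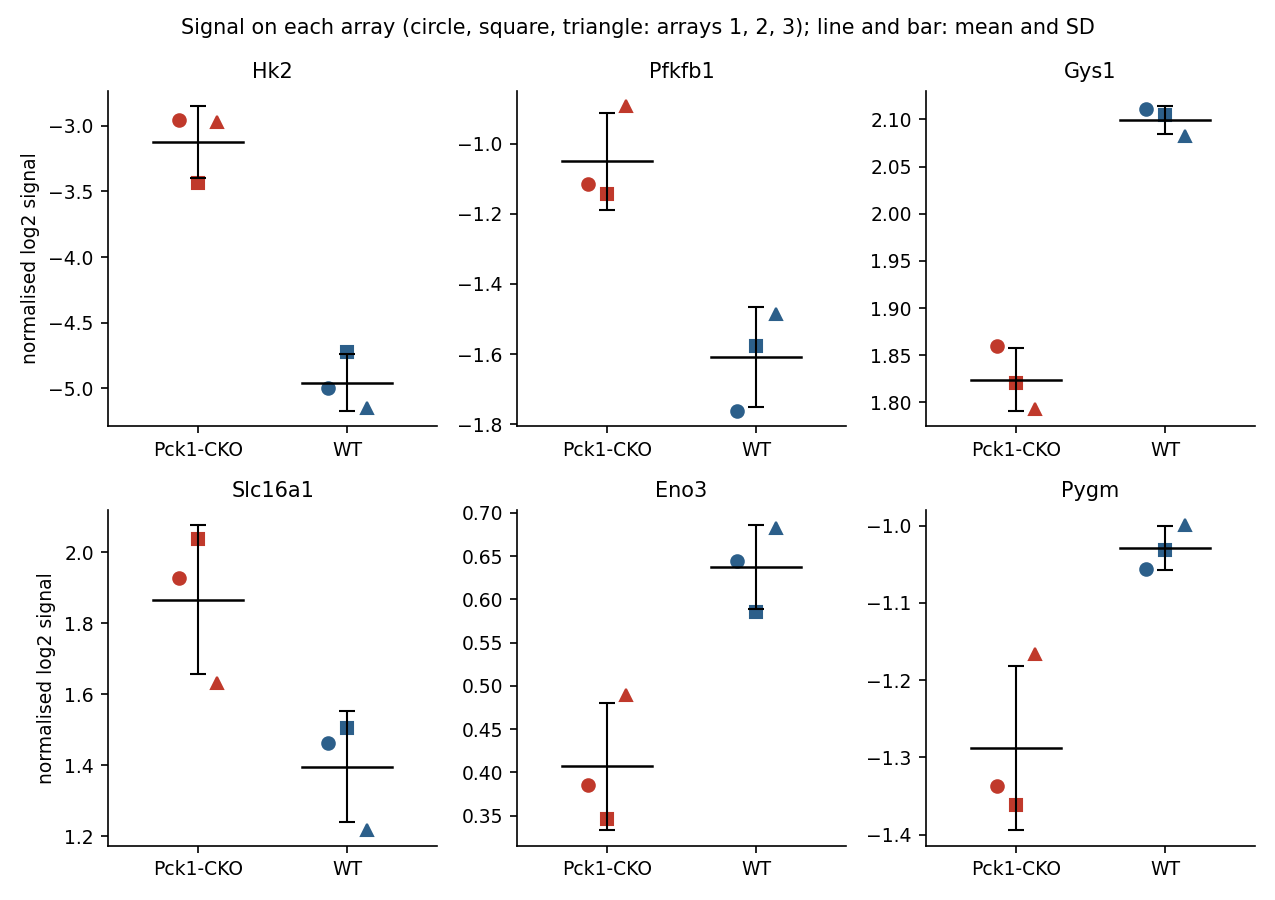
Normalised log2 signal of 6 genes on each array (vertical axes differ between panels), Pck1-CKO in red at the left of each panel and WT in blue at the right, with the mean as a line and the SD as a bar. Hk2, Pfkfb1 and Gys1 passed the test, whereas Slc16a1, Eno3 and Pygm separated the groups and had adjusted p-values of 0.078, 0.0573 and 0.0605.

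The promoters of the 2 called genes with a single annotated start, Hk2 and Gys1, are shown with that of Pgk1, a classic hypoxia-inducible gene with a log2 change of 0.0034 here, and of Slc16a1. Each line gives the 250 bases before the start, 5′ to 3′ on the gene's strand, from RefSeq on GRCm38.p6. They lie at chr6:82774455-82774704 (Hk2, minus strand), chr7:45434589-45434838 (Gys1, plus strand), chrX:106186850-106187099 (Pgk1, plus strand) and chr3:104638414-104638663 (Slc16a1, plus strand). Capitals mark ACGTG, the core of the hypoxia response element, CACGTG, an E-box that contains it, and CCCGCCCC, a GC box, on either strand.
Hk2: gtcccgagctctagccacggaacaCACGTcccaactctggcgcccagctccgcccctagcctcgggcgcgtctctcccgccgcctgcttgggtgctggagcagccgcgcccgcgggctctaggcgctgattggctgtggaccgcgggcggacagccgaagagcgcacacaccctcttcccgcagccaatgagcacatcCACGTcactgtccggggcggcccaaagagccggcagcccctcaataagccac
Gys1: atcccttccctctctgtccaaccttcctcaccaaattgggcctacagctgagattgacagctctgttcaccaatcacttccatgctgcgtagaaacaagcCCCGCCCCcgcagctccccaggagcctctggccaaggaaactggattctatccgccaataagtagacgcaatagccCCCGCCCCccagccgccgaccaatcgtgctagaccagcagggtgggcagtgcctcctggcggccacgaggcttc
Pgk1: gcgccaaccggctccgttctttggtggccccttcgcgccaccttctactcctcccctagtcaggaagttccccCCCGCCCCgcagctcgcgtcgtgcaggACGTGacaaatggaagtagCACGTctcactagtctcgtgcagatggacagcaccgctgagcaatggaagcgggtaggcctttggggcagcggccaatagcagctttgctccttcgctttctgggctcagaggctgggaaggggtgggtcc
Slc16a1: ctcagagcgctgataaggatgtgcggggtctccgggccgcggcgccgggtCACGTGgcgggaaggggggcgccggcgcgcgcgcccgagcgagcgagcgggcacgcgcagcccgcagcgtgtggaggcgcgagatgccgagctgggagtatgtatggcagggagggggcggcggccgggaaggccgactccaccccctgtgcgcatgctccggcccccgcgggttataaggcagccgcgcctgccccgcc
In Hk2 the 2 matches to the hypoxia element core begin 226 and 52 bases before the start. In Gys1 the 2 GC boxes begin 150 and 74 bases before it. Pfkfb1 has 4 annotated starts, none of whose windows holds any of the 3 motifs. All 38 members matched a window, 56 windows in all, and a gene was counted where any of its windows held the motif. The whole set held 32851 windows of 27025 genes. The shares below were not matched for windows per gene, and more windows give a gene more chances of a match. ACGTG was in 16 members (42.1%), against 22.8% of the 13511 tested genes with a window. CACGTG was in 6 members (15.8%, against 9.05%) and CCCGCCCC in 12 (31.6%, against 27.6%). The 16 members with ACGTG had a median log2 change of 0.0020 and included 1 called gene, Hk2. The 22 without it had a median of -0.0094. Over all tested genes the medians were 0.022 with and 0.0080 without the motif, and 7.44% with and 7.98% without it were called.

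None of the 10 genes from aldolase to pyruvate kinase passed in limma. Those with an unadjusted p below 0.05 were 2 lower and 0 higher, beside 31.2% of all genes in either direction. Aldoa, which splits the fructose bisphosphate of glycolysis, read 8.0, 8.0 and 7.96 in Pck1-CKO and 7.99, 7.97 and 8.04 in WT. Its log2 change was -0.011, with a 95% interval of -0.110 to 0.088. Tpi1, which interconverts the triose phosphates, read 6.30, 6.39 and 6.35 in Pck1-CKO and 6.34, 6.32 and 6.38 in WT. Groups of both genes overlapped. The 3 probes of Tpi1 changed by -0.0014, 0.039 and 0.059.

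Gapdh, which oxidises the triose phosphate and often serves as a loading control, was read by 6 probes, with log2 changes between 0.037 and 0.13. Its brightest probe read 7.96, 7.91 and 7.95 in Pck1-CKO and 7.91, 7.82 and 7.94 in WT, an interval of -0.065 to 0.165. Pgk1, the first step to yield ATP, read 7.93, 7.92 and 7.85 in Pck1-CKO and 7.89, 7.88 and 7.92 in WT, a log2 change of 0.0034 (interval -0.098 to 0.105). Its groups overlapped, and its window shown above holds the hypoxia element core on each strand. Pgam1, the phosphoglycerate mutase of most tissues, had a log2 change of 0.14 (interval -0.033 to 0.311). Eno1, the enolase of most tissues, read 6.67, 6.60 and 6.53 in Pck1-CKO and 6.63, 6.5 and 6.67 in WT, and its 3 probes changed by 0.0014, 0.047 and -0.030. Pkm, the pyruvate kinase gene outside liver and red cells, read 4.51, 4.51 and 4.50 in Pck1-CKO and 4.63, 4.54 and 4.63 in WT. These groups did not overlap, but the log2 change of -0.096 did not pass (adjusted p = 0.193), and a second probe gave 0.0021.

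Over 12 core genes grouped after their values were seen (Gpi1, Pfkl, Pfkm, Aldoa, Tpi1, Gapdh, Pgk1, Pgam1, Eno1, Pkm, Ldha and Ldhb), none passed in limma and 0 had an unadjusted p below 0.05. Their median size of change was 0.026 on the log2 scale, and 11 of the 12 were under 0.1. Over all genes 8.04% passed, 31.2% had such a p, the median size was 0.119 and 43.3% were under 0.1. The choice left out forms with larger changes, such as Hk2, Pfkp, Aldoc and Eno3. These values therefore describe the chosen genes and test nothing about glycolysis as a whole. The 95% interval that reached farthest from 0 was that of Pgam1, to 0.311.

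Aldoc, the brain form of aldolase, read 2.48, 2.45 and 2.68 in Pck1-CKO and 2.73, 2.76 and 3.04 in WT. Its groups just failed to meet, the log2 change was -0.31 ± 0.11 (SE, adjusted p = 0.119), and its second probe gave -0.25. Eno2, the neuronal enolase, had a log2 change of -0.095. Eno3, the muscle enolase, read 0.38, 0.35 and 0.49 in Pck1-CKO and 0.64, 0.59 and 0.68 in WT. All Pck1-CKO arrays were below all WT arrays, with a log2 change of -0.23 ± 0.05 (SE) that fell just outside the threshold (adjusted p = 0.0573). Without Pck1-CKO 3 it was -0.27 and passed (adjusted p = 0.0438).

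Lactate dehydrogenase interconverts pyruvate and lactate, and the kidney takes up lactate as a fuel and as a source of glucose. Ldha had a log2 change of 0.035 and Ldhb of -0.0043. Ldhb read 8.09, 8.09 and 8.05 in Pck1-CKO and 8.09, 8.08 and 8.07 in WT, and its second probe changed by 0.00077. Both genes overlapped between groups, and neither interval went past 0.169. Slc16a1, the main carrier of lactate and ketone bodies across cell membranes, read 1.93, 2.04 and 1.63 in Pck1-CKO and 1.46, 1.51 and 1.22 in WT. The groups were apart, with the lowest Pck1-CKO array above the highest WT array, but the log2 change of 0.47 ± 0.13 (SE) did not pass (adjusted p = 0.0780). Without Pck1-CKO 3 it was 0.59 and passed (adjusted p = 0.0426). Slc16a3, the lactate exporter of strongly glycolytic cells, had a log2 change of 0.11 with overlapping groups.

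The pentose phosphate pathway supplies NADPH and ribose, and none of its 6 genes passed in limma, with 0 at an unadjusted p below 0.05. G6pdx, the rate-limiting first enzyme, read 2.60, 2.60 and 2.57 in Pck1-CKO and 2.53, 2.47 and 2.56 in WT. The groups lay side by side without overlap, and the log2 change was 0.071 (interval -0.033 to 0.174). Taldo1, transaldolase of the non-oxidative branch, also did not overlap and changed by 0.092 (adjusted p = 0.214). Pgls, Pgd and Tkt, the lactonase, the second dehydrogenase and transketolase, changed by -0.015, -0.051 and -0.020. Rpia, ribose phosphate isomerase, had the largest size of the 6, at -0.10 with an interval of -0.352 to 0.143.

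Fructose enters metabolism in the proximal tubule through ketohexokinase. Khk read 7.25, 7.36 and 7.42 in Pck1-CKO and 7.33, 7.32 and 7.39 in WT, so the groups overlapped. Its log2 change was 0.00048, with an interval of -0.139 to 0.14. Sord, which oxidises sorbitol to fructose, read 6.84, 6.87 and 6.77 in Pck1-CKO and 6.80, 6.80 and 6.94 in WT. Its 2 probes changed by -0.016 and 0.068. Tkfc, the triokinase of the same route, named after its value was seen, had a log2 change of 0.023 and did not pass.

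Of the glycogen genes 1 of 5 passed, beside 8.04% of all genes, and 5 genes are too few to compare the shares. Gys1 read 1.86, 1.82 and 1.79 in Pck1-CKO, against 2.11, 2.10 and 2.08 in WT. Replicates were tight and the groups far apart beside that spread. Means were 1.82 ± 0.03 in Pck1-CKO and 2.10 ± 0.01 in WT (SD, n = 3 each), and the log2 change was -0.28 ± 0.04 (SE, adjusted p = 0.0262, interval -0.370 to -0.181). The array carries 1 Gys1 probe. Its call was lost without WT 1, WT 2, Pck1-CKO 1 or Pck1-CKO 2, with an adjusted p between 0.0841 and 0.118 and a log2 change between -0.29 and -0.27.

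Glycogen phosphorylases release glucose phosphate from glycogen. Pygm, the muscle form, read -1.34, -1.36 and -1.17 in Pck1-CKO and -1.06, -1.03 and -1.0 in WT. The Pck1-CKO arrays were all lower, and the log2 change was -0.26 ± 0.06 (SE, adjusted p = 0.0605). Its second probe gave -0.30, and without Pck1-CKO 3 the gene passed at -0.32 (adjusted p = 0.0266). Pygl, the liver form, had a log2 change of -0.17 (adjusted p = 0.232) and Pygb, the brain form, of -0.054. Gbe1, the branching enzyme, had 0.12 and 0.15 by its 2 probes, neither past the threshold.

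Skeletal muscle markers were set beside Gys1, Eno3 and Pygm, which muscle expresses and which were picked after their values were seen. Of other muscle-type enzymes, Pfkm had a log2 change of -0.017 with overlapping groups. Pgam2, not a member, was at -0.18 with groups apart, and neither passed. Of 10 such markers, 5 were tested and none passed in limma, but all 5 had negative changes, with a median of -0.37. Actn3, a muscle actinin, had the largest of these at -0.89 (adjusted p = 0.0622), with all Pck1-CKO arrays below all WT arrays, and it was the 1 marker with an unadjusted p below 0.05. The summed signal of the 5 was 0.517 to 0.535 in Pck1-CKO and 0.523 to 0.910 in WT. The defining markers Ckm, the muscle creatine kinase, and Mb, myoglobin, were not well above background on any array, and the myosin genes Myh1, Myh2 and Myh4 on at most 1. The sum was highest on WT 2, whereas Gys1, Eno3 and Pygm did not stand apart there. The part of muscle RNA in these values was not tested.

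Fat cell markers were higher on the same arrays as Hk2, which fat cells express. The summed linear signal of 6 brown adipocyte markers was 33.0, 31.3 and 34.9 in Pck1-CKO, against 0.558, 3.13 and 3.25 in WT. That of 8 general adipocyte markers was 81.5, 76.5 and 126 in Pck1-CKO, against 14.8, 31.1 and 28.1 in WT. All 14 markers were well above background on the Pck1-CKO arrays. Elovl3 was so on no WT array, and only a bound holds for its size, at least 3.76-fold higher in Pck1-CKO. Lep, the leptin gene, had overlapping groups and a log2 change of 0.037, and for the other 13 all Pck1-CKO arrays lay above all WT arrays. WT 1 had less brown fat signal than WT 2 or WT 3, but Hk2 on WT 1 lay between those of the other WT arrays. Pfkfb1 was lowest on WT 1. On Pck1-CKO 3 the general fat markers were highest, whereas Hk2 was there at -2.97, beside -2.95 and -3.44. Pfkfb1 was highest on Pck1-CKO 3, and Slc16a1 was lowest of its group there. The part of fat RNA in the changes of Hk2, Pfkfb1 and Slc16a1 was not tested.

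**Figure D3:**
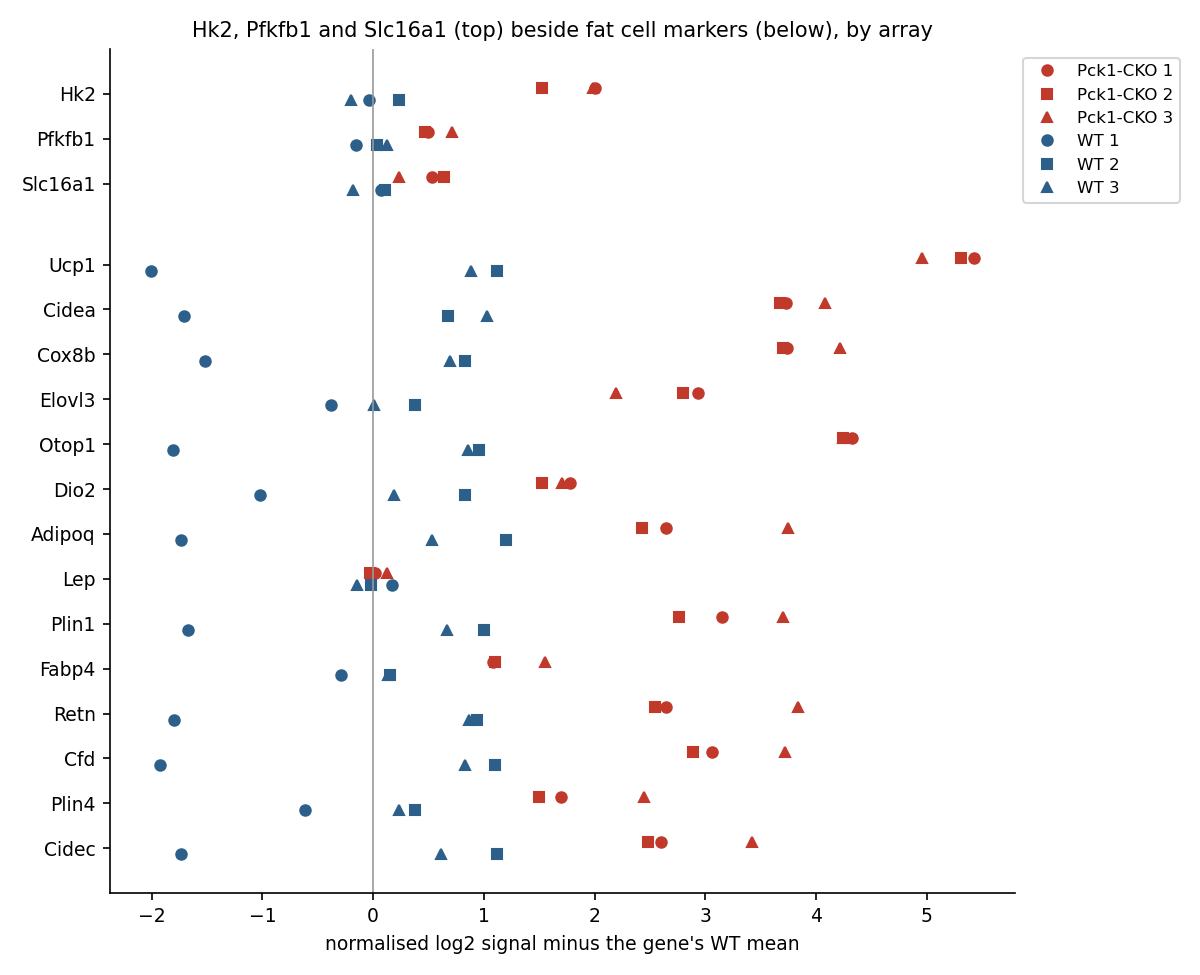
Normalised log2 signal minus the gene's mean over WT (horizontal axis) on each array, for Hk2, Pfkfb1 and Slc16a1 at the top and 14 fat cell markers below. Pck1-CKO arrays are red and WT arrays blue, with a circle, square or triangle for arrays 1, 2 and 3. WT 1 is the leftmost WT array for all fat markers but Lep and for Pfkfb1, and it is not for Hk2 or Slc16a1. The WT values of Elovl3 are not well above background.

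Other genes of the same pathways were looked at from a list of 70, of which 65 were tested and 7 were higher and 0 lower in limma. With an unadjusted p below 0.05 in limma they were 16 and 3 of the 65, a rule met by 31.2% of all genes. Groups did not overlap for 35.4% of the 65, against 38.3% of all genes. The called share was 10.8%, beside 8.04% of all genes, and the median log2 change was 0.055, against 0.0091. Ppp1r3g, a glycogen-targeting subunit of protein phosphatase, read -4.76, -4.77 and -5.41 in Pck1-CKO and -7.37, -7.77 and -7.78 in WT. No WT array had it well above background, so it met the filter through the Pck1-CKO arrays alone. Only a bound holds for its size, at least 1.64-fold higher in Pck1-CKO. Its adjusted p of 0.0125 in limma came from the WT signals as read, not from the bound, and lends no support. It is among the 7 counted above. Here the bound sets the Pck1-CKO mean of -4.98 against, per WT array, the higher of its own signal and the lowest signal well above background. The call did not hold with normexp, where the log2 change was 0.34, nor without WT 2, Pck1-CKO 1 or Pck1-CKO 2.

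Ldhd, the mitochondrial dehydrogenase of D-lactate, read 6.69, 6.69 and 6.58 in Pck1-CKO and 6.21, 6.18 and 6.20 in WT, a log2 change of 0.46 ± 0.05 (SE, adjusted p = 0.0152). Groups were far apart beside their spread. Nhlrc1, which encodes malin, a ubiquitin ligase of glycogen metabolism, read 0.34, 0.36 and 0.21 in Pck1-CKO and -0.30, -0.13 and -0.46 in WT (log2 change 0.60 ± 0.09, adjusted p = 0.0305). Akr1b3, the aldose reductase that makes sorbitol from glucose, read 5.18, 5.19 and 4.87 in Pck1-CKO and 4.47, 4.33 and 4.60 in WT (log2 change 0.61 ± 0.11, adjusted p = 0.0383). Sord, its partner in the polyol route, had a log2 change of -0.016. Tigar, a phosphatase that lowers the activator made by the PFKFB enzymes, read 0.65, 0.71 and 0.56 in Pck1-CKO and 0.34, 0.40 and 0.33 in WT (log2 change 0.28 ± 0.05, adjusted p = 0.0383). Mlx, partner of the glucose-sensing transcription factors, named after its value was seen, had a log2 change of 0.38 (adjusted p = 0.0439). Without WT 1 only Ppp1r3g of these named genes passed, and without WT 2, Pck1-CKO 1 or Pck1-CKO 2 none did. Without WT 3 the calls of Tigar and Mlx were lost too.

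**Figure D4:**
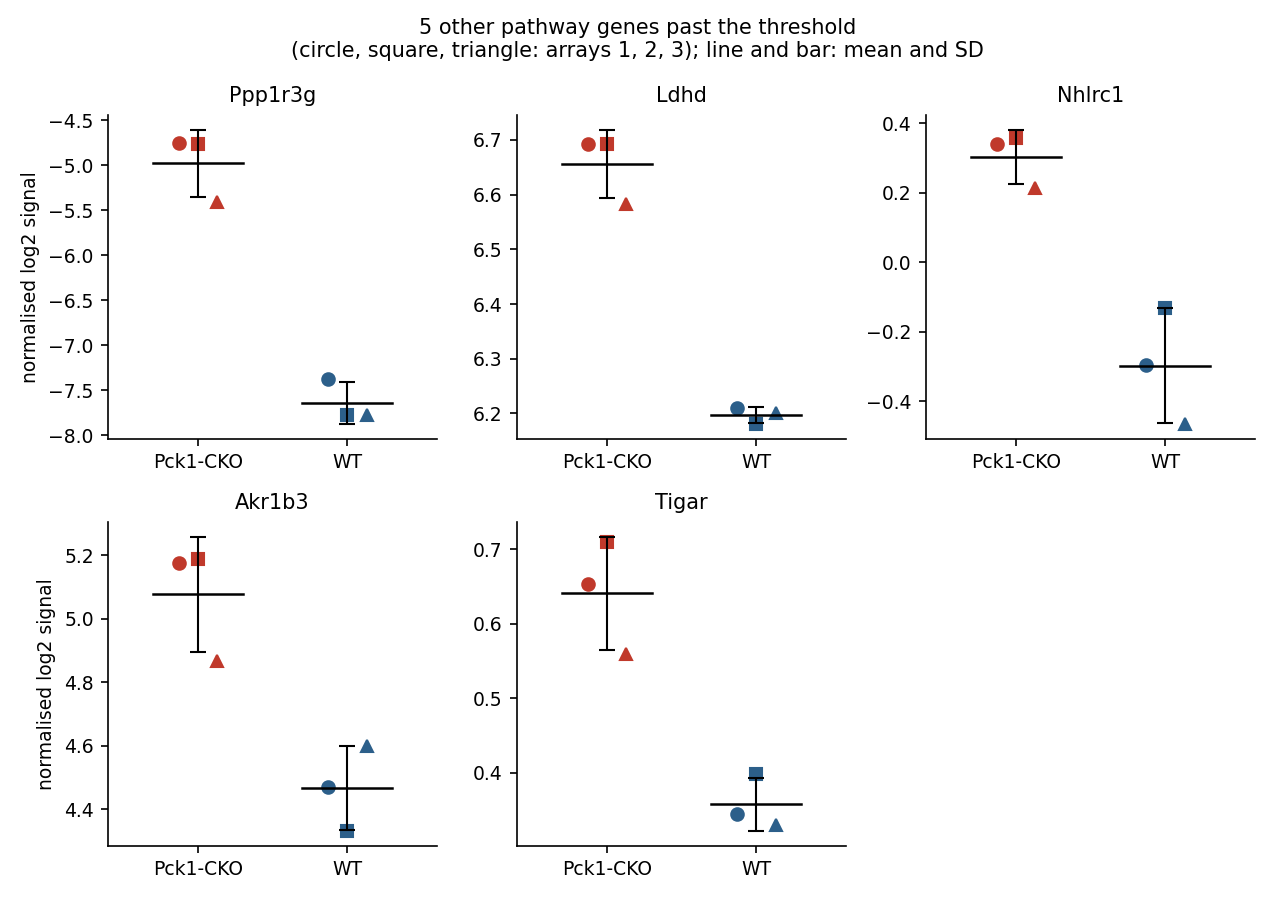
Normalised log2 signal of the 5 other pathway genes that passed with the lowest p, on each array (vertical axes differ between panels), with Pck1-CKO in red at the left of each panel and WT in blue at the right, the mean as a line and the SD as a bar. In each panel all 3 Pck1-CKO arrays lie above all 3 WT arrays, and the WT values of Ppp1r3g are not well above background.

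Genes of the hypoxia response outside the members were set beside them, since many glycolytic genes belong to that response. The list included Hif1a and Epas1, which encode hypoxia-inducible factors themselves rather than being typical targets, and neither passed. Of 17 tested, 2 were higher and 0 lower, 11.8% beside 8.04% of all genes. With an unadjusted p below 0.05 in limma they were 7 higher, Hif1a among them, and 2 lower, beside 31.2% of all genes in either direction. P4ha2 and P4ha1, collagen prolyl hydroxylases, rose by 0.39 ± 0.05 and 0.44 ± 0.08 on the log2 scale (adjusted p = 0.0237 and 0.0353). Both calls were lost without WT 1, WT 2, Pck1-CKO 1 or Pck1-CKO 2, and that of P4ha1 also without WT 3. Among members known as targets of the hypoxia-inducible factors, Pgk1, Ldha and Aldoa had log2 changes of 0.0034, 0.035 and -0.011, none past the threshold. Pfkfb3 was at 0.24 without passing, and Hk2 was at 1.84. These genes are examples, since the members were not sorted into targets and others. Of the members not named here, Gys1 was called lower, at -0.28.

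Single arrays set how many members passed. Without WT 1, WT 2 or Pck1-CKO 1 none of the 38 passed in limma, and without Pck1-CKO 2 only Hk2 did. Leaving these arrays out also left between 25 and 70 called genes on the whole array. Without WT 3 the called members were Hk2, Pfkfb1, Pfkfb3 and Gys1. Without Pck1-CKO 3 they were 7, namely Hk2, Pfkfb1, Pfkp, Slc16a1, Gys1, Eno3 and Pygm. Among the 10 members with an unadjusted p under 0.05, Pck1-CKO 3 was the array of its group nearest to the WT mean for 6. It was also the nearest for 50.8% of the 5354 genes of the array with such a p.

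**Figure D5:**
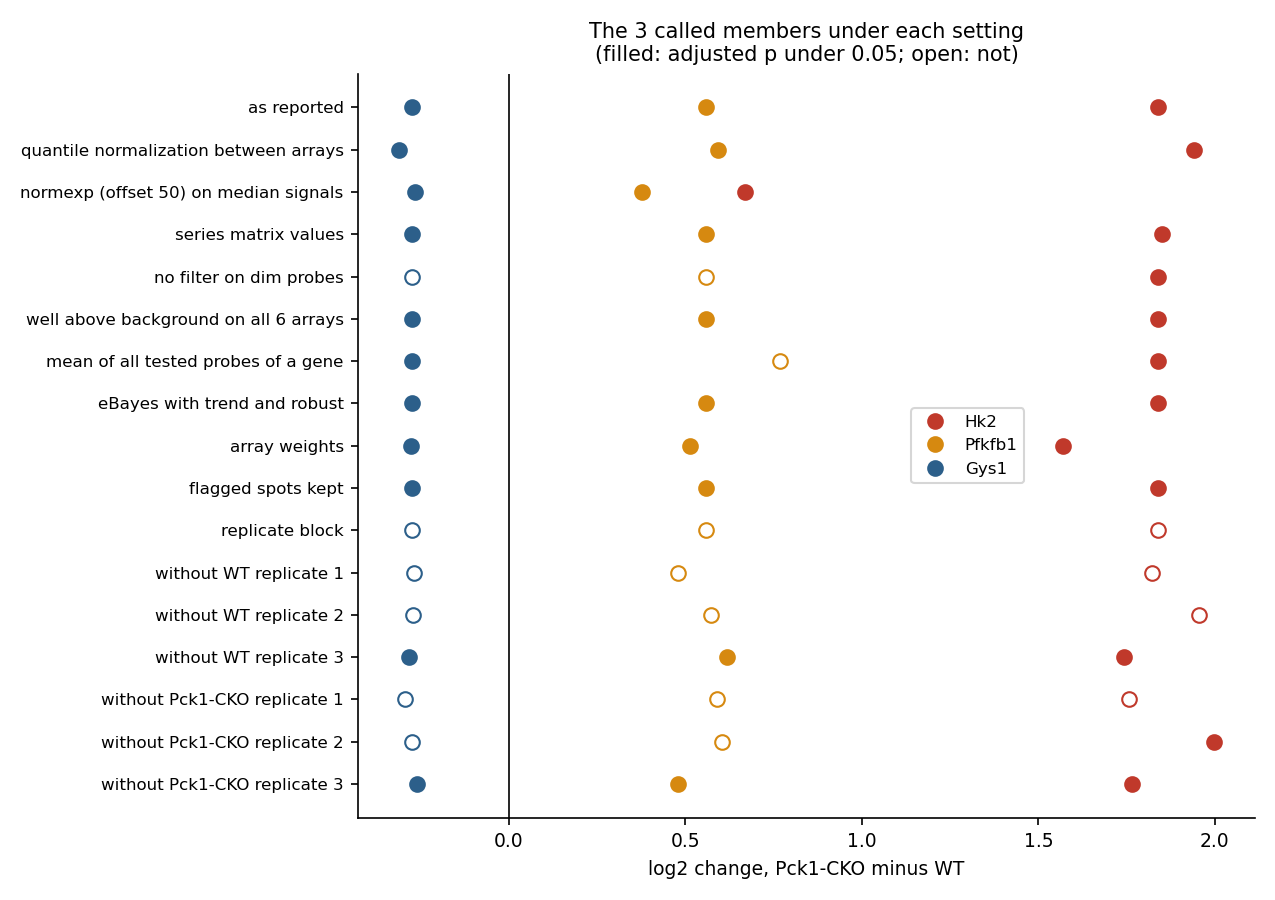
Log2 change of Hk2, Pfkfb1 and Gys1 (horizontal axis) as reported and under each of 16 alternatives (rows), filled where the adjusted p was under 0.05 and open where it was not. Each gene keeps its sign in every row, Hk2 drops to 0.67 with normexp, and all 3 genes are open with the replicate block and without WT 1, WT 2 or Pck1-CKO 1. Pfkfb1 and Gys1 are also open with no filter and without Pck1-CKO 2, and Pfkfb1 with the mean of its probes.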

How the data were processed

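The authors deposited 1 scanner file per array, made with Agilent Feature Extraction 10.7.1.1 per the submitters' processing notes and the file headers. Processed and raw signals are intensity values on a linear scale, the processed ones background-subtracted, per the file headers. The authors' deposited matrix is on a linear ratio scale, since dividing a probe's averaged processed signals by a single array-wide factor gave its values to within 1% for at least 99.8% of bright probes. What software scaled it is not stated.

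Spots with an outlier flag were left out (46 to 94 per array, 0 saturated), log2 signals were averaged per probe, and each array's 75th percentile was subtracted. Of 56605 probes, 34675 had 1 symbol through RefSeq (GRCm38.p6 table). The array design uses another build, so only promoters carry coordinates. Probes well above background on at least 3 arrays were kept, and the brightest stood for a gene. Members had 69 probes, 67 tested. Of 29 second probes, 21 had the sign of the brightest. The test, 2-sided, was limma 3.58.1 (lmFit, then eBayes; R 4.3.3) with Benjamini-Hochberg adjustment over 17136 genes. Errors of log2 changes are standard errors. Named genes were the members, up to 5 other called genes per list and direction by p, and Pck1. Some genes of the lists enter the counts and are not reported here by name. Members, lists and tests were chosen with earlier results of these data known. The procedure was tested on simulated data with independent noise for each gene, which cannot show how far the calls depend on single arrays. The labels name no pairs, and same-numbered arrays did not deviate together in a check that 3 arrays per group make weak. Numbers were therefore not used as pairs. Alternatives covered normalization, background, source, filter, probe choice, variance, weights, flags, block and left-out arrays.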

Additional observations from a re-analysis of the deposited data

How the results depend on the processing

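Hk2, Pfkfb1 and Gys1 kept their sign under all 16 alternatives. Hk2 passed in 12, Gys1 in 10 and Pfkfb1 in 9. Over all genes, calls were 743 higher and 634 lower as reported, 61 and 81 with no filter on dim probes, 1682 and 1149 with a variance trend and robust fit, 3285 and 2614 with array weights, 3 and 1 with the replicate number as a block, and 16 to 779 higher and 9 to 806 lower on leaving out an array. Members called higher, 2 as reported, were 1 without the filter and with the mean of a gene's probes. They were 3 with normexp and with the trend, 7 with array weights and 0 with the block. On leaving out an array they were 0 to 4. Members called lower, 1 as reported, were 2 with normexp and with the filter at 6 arrays, 3 with the trend, 4 with weights, 0 with no filter and with the block, and 0 to 3 on leaving out an array. Other pathway genes called higher, 7 as reported, were 5 with quantile normalization, 2 without the filter and 8 with the filter at 6 arrays. They were 11 with the trend, 19 with weights, 0 with the block and 0 to 8 on leaving out an array. Those called lower, 0 as reported, were 1 with normexp and with the mean of probes, 2 with the trend, 7 with weights and 0 to 2 on leaving out an array. With array weights 11 of 38 members passed (28.9%), beside 34.4% of all genes.

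The block changed the 3 members' adjusted p to 0.0728 for Hk2, 0.0728 for Pfkfb1 and 0.0773 for Gys1. Deviations of same-numbered arrays correlated at -0.0010, -0.115 and -0.023, and those of differently numbered arrays between -0.076 and 0.116. With 3 arrays per group this check cannot show that same-numbered arrays share nothing but a number. Slide and scan gave no block, since all arrays shared both. The 3 arrays per group limit precision, and the dim genes Hk2 and Ppp1r3g had smaller log2 changes with normexp, 0.67 and 0.34. The causes of these shifts were not tested.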
